A study of Mus musculus with 8 samples.

Results

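Wnt ligands are secreted, lipid-modified proteins that bind Frizzled receptors on neighbouring cells. Ligands that act through Frizzled and the co-receptors LRP5 and LRP6 stabilise beta-catenin, which keeps intestinal stem cells dividing, while ligands such as Wnt5a mainly act through ROR and RYK receptors without beta-catenin. In the gut wall, Paneth cells of the small intestinal crypt and stromal cells under the epithelium are known sources of these ligands. The family described here has 9 members, namely Wnt2, Wnt2b, Wnt3, Wnt4, Wnt5a, Wnt5b, Wnt6, Wnt9b and Wnt11. They were taken by gene symbol from the 32285 mouse genes of the deposited matrices, and all 9 were listed in each of the 8 libraries.

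The libraries came from C57BL/6 mice and formed 3 sets. A pair of single-cell libraries held small intestinal organoids at passage 1, grown alone (control) or in coculture with a partner that the labels did not name, with epithelial cells sorted from pooled wells. A second pair held digested small or large intestine, sorted for live cells and enriched for LGR5+ stem cells and for CD31+ PDPN+ LYVE1+ lymphatic endothelial cells, from C57BL/6 and Lgr5-eGFP-ires-CreERT2 mice. The third set was 4 Visium sections of intestine, 2 of small and 2 of large intestine, in which a spot captures the RNA of the small patch of tissue lying on it. Sections of 1 tissue were technical duplicates, and the remaining groups had 1 library each, so groups are compared without a test or p-value. The number and age of the mice behind a library were not given in the sources used here, and class shares in the sorted libraries describe the sort.

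Values are counts of unique molecular identifiers (UMIs) and CPM, which are counts scaled to a total of 1000000 UMIs, of a library, cell class, section or region. Brackets after a CPM or a log2 ratio of CPM hold the exact 95% Poisson interval, which covers counting error only. Where a gene had 0 UMIs, the level given as allowed is that of 3 UMIs. Cells kept after quality filters numbered 538 (control organoids), 1028 (cocultured organoids), 2695 (small intestine) and 5882 (large intestine), with 2094 to 2571 spots in a section and 24355871 to 123864787 UMIs per library. The tissue libraries shared 25 cell barcodes and the organoid libraries 0. Classes were named from marker lists and are called by those names with the ending "-like". Clusters that could not be named held 285 control organoid, 423 cocultured organoid, 197 small intestinal and 1549 large intestinal cells, which enter no ranking of classes. Paneth marker genes made up 573404 CPM of the Paneth-like cells against 9092 CPM of the small intestinal lymphatic endothelial-like cells, and the lymphatic list was at 17523 CPM in those cells against 25.0 CPM in the Paneth-like cells. A member was called apart between groups where CPM differed at least 2-fold and the higher group had 20 UMIs or more.

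In RefSeq gene models of the GRCm38.p6 build (mm10), Wnt2 is at chr6:17985474-18032772, Wnt2b at chr3:104944805-104961709, Wnt4 at chr4:137277635-137299501, Wnt5a at chr14:28504543-28527448 and Wnt5b at chr6:119432531-119544824. Wnt6 is at chr1:74754342-74785322 and Wnt11 at chr7:98835084-98854747. Wnt9b (chr11:103727362-103775272, minus strand) and Wnt3 (chr11:103774175-103818021) are neighbours whose RefSeq gene models overlap by 1098 bases at the start of Wnt3, on opposite strands. Whether the counting used strand was not given in the sources used here, so it is not known whether reads from the overlap were told apart. Promoters of 8 members were found in a RefSeq table of the GRCm38.p6 build, as 11 windows of 250 bases before to 50 bases after a start site. The promoters of 3 members are shown because they were the members called apart between the tissues on the sections: Wnt2 (chr6:18030396-18030695, minus strand), Wnt3 (chr11:103773925-103774224, plus strand, within the Wnt9b gene model) and Wnt11 (chr7:98834862-98835161, plus strand). Capitals mark the letters of the TCF/LEF motif, the site bound by the transcription factors that work with beta-catenin, written 5′ to 3′ on the strand of the gene.
Wnt2: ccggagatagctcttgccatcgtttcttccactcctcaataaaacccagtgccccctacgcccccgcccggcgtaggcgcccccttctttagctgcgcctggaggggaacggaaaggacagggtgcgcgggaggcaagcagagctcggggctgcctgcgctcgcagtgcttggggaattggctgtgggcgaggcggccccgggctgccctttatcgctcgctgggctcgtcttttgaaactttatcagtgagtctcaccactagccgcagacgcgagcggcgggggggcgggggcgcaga
Wnt3: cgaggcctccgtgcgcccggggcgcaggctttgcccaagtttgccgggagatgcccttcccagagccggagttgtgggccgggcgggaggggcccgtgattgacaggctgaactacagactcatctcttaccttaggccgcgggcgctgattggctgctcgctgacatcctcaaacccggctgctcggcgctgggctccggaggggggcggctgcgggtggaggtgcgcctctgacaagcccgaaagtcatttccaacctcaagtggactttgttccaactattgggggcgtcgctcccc
Wnt11: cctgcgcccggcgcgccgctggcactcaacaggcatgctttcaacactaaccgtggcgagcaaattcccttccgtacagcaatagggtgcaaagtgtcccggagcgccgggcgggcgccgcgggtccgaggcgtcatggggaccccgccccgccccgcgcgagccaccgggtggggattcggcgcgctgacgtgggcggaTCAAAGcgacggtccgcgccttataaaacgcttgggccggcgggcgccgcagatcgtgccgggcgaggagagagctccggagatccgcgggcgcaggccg
The motif CTTTGA, searched on both strands (TCAAAG on the other), was in 2 of the 11 windows of members, 1 of Wnt11 and 1 of Wnt5b, and in 16% of all 32851 promoter windows. A SOX motif (ACAATG, or CATTGT on the other strand) was in 0 of the 11 windows and in 12.6% of all windows, and an E-box (CAGCTG, which reads the same on both strands) in 0 of the 11 and in 16.3% of all. The Wnt2 and Wnt3 windows both had a GC content of 65.7% and the Wnt11 window shown 71.3%, against a median of 52.7% over all windows. The table holds another Wnt11 window (chr7:98838595-98838894), with a GC content of 59.3% and no match to the TCF/LEF motif.

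In the small intestine, the 4 members with enough UMIs differed in the classes where their CPM was highest. Wnt2 came from lymphatic endothelial-like cells, Wnt3 from Paneth-like, enteroendocrine-like and goblet-like cells, Wnt4 from smooth muscle or pericyte-like and macrophage or monocyte-like cells, and Wnt5a from fibroblast-like and smooth muscle or pericyte-like cells. The class with the highest CPM was stromal or endothelial for 3 of these 4, with at least 10 UMIs asked of that class, where the same held for 29.1% of 11970 genes. For Wnt4 this order rests on smooth muscle or pericyte-like cells at 73.0 CPM and macrophage or monocyte-like cells at 67.5 CPM, which were not separated (log2 ratio 0.11, -0.61 to 0.83). The other 5 members had fewer UMIs in their highest class. In the large intestine 7 members met the same minimum, and all 7 were highest in a stromal class, where 39.7% of 13102 genes were highest in a stromal or endothelial class. The first class of Wnt11 (12 UMIs) was not separated from 9 others, nor that of Wnt2 from lymphatic endothelial-like cells. Compared classes numbered 16 in the small and 15 in the large intestine, each with at least 20 cells.

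**Figure D1:**
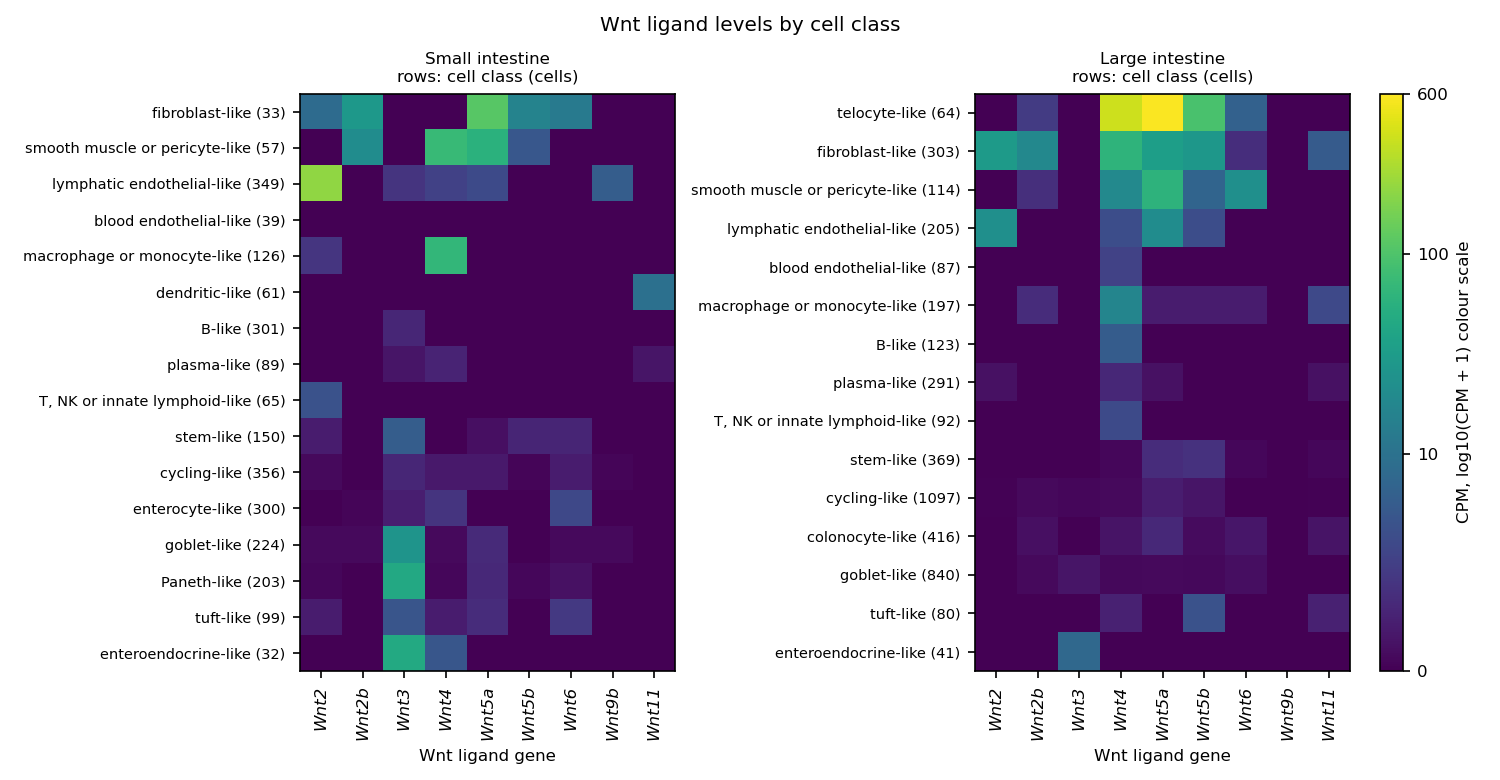
Level of the 9 Wnt ligand genes (columns) in each named cell class of at least 20 cells (rows, number of cells in brackets) in the small (left) and large (right) intestinal tissue library, as CPM on a log10(CPM + 1) colour scale. Wnt2 stands out at 208 CPM in the lymphatic endothelial-like row of the left panel, Wnt3 in 3 secretory epithelial classes of the small intestine, and Wnt4, Wnt5a and Wnt5b in the telocyte-like cells of the large intestine.

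Wnt2, a ligand that acts through beta-catenin, had 271 UMIs in the kept cells of the small intestine. Of these 258 were in the 349 lymphatic endothelial-like cells, which were 12.9% of the cells and held 95.2% of the Wnt2 UMIs, at 208 CPM (184 to 236). A Wnt2 UMI was found in 161 of these cells, with at most 4 UMIs in a cell, so the level did not rest on a few cells. The class was made of 2 clusters. The larger one (268 cells) was at 214 CPM and the other (81 cells), whose cells had a median of 1257 UMIs, at 156 CPM. After every cell was thinned to 2000 UMIs, a Wnt2 UMI was found in 33.3% of 258 such cells (exact binomial interval 27.6 to 39.4) and in 0% of 273 B-like cells, whose median depth before thinning was 2802 UMIs against 3370 in the lymphatic endothelial-like cells. Thinned to 1000 UMIs, the share was 16.9% of 337 lymphatic endothelial-like cells. Fibroblast-like cells came next with 2 UMIs, at 8.33 CPM, and blood endothelial-like cells had 0 UMIs, which allows up to 20.6 CPM in their 145307 UMIs.

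The large intestine showed another order for Wnt2. The 303 fibroblast-like cells held 73 of its 89 UMIs at 31.9 CPM (25.0 to 40.1), and the 205 lymphatic endothelial-like cells held 13 UMIs at 23.0 CPM (12.3 to 39.3). The intervals of these classes overlap, with a log2 ratio of 0.47 (-0.39 to 1.45). The log2 ratio of Wnt2 in lymphatic endothelial-like cells, small over large intestine as in all later comparisons of the tissues, was 3.18 (2.38 to 4.11), so that the 1 member with enough UMIs was called, and 9.32% of 6716 tested genes were called higher in the small intestine. These cells had a median of 3370 UMIs in the small and 2292 in the large intestine, and the lymphatic marker list was at 17523 and 23571 CPM, the opposite direction to Wnt2. With 1 library a tissue, tissue and library cannot be told apart in any comparison of cell classes. Wnt5a went the other way in these cells, with 4 UMIs (3.23 CPM) in the small and 12 UMIs (21.2 CPM) in the large intestine, below the number of UMIs needed. Wnt9b had 7 UMIs in 6 small intestinal and 0 UMIs in large intestinal lymphatic endothelial-like cells.

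Wnt2b, a close relative of Wnt2, was low in both tissue libraries. In the small intestine it had 18 UMIs, of which 9 were in smooth muscle or pericyte-like cells (21.2 CPM, 9.69 to 40.2) and 7 in 7 fibroblast-like cells (29.1 CPM, 11.7 to 60.1). Of 60 UMIs in the large intestine, 43 were in fibroblast-like cells at 18.8 CPM (13.6 to 25.3). In both tissues the lymphatic endothelial-like cells had 0 Wnt2b UMIs, which allows up to 2.42 and 5.31 CPM.

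Wnt3, the ligand that Paneth cells supply to neighbouring stem cells, had 625 UMIs in the small intestine, mostly in secretory epithelium. Paneth-like cells held 420 UMIs at 46.1 CPM (41.8 to 50.7), in 135 of 203 cells. Enteroendocrine-like cells, which make gut hormones, held 21 UMIs at 47.7 CPM (29.6 to 73.0), in 11 of 32 cells. Goblet-like cells, which make mucus, held 137 UMIs at 26.1 CPM (22.0 to 30.9), in 62 of 224 cells. In CPM the first 2 of these classes did not differ beyond counting error (log2 ratio 0.05, -0.66 to 0.68). CPM is a share of all UMIs, and the Paneth list, at 573404 CPM, leaves less of the total to other genes in Paneth-like cells. Levels per cell were not compared. Stem-like cells stood well below at 18 UMIs and 5.66 CPM (3.35 to 8.94), and B-like cells had 1 UMI. Paneth marker genes were also present in the other classes: the list was at 35662 CPM in goblet-like and 4752 CPM in enteroendocrine-like cells, and at 9092 CPM in lymphatic endothelial-like cells, which had 2 Wnt3 UMIs (1.62 CPM). From Paneth-like to goblet-like cells the Paneth list went from 573404 to 35662 CPM and Wnt3 from 46.1 to 26.1 CPM. The part of Paneth RNA in the Wnt3 level of other classes was not tested. After thinning to 2000 UMIs a Wnt3 UMI was found in 13.8% of the Paneth-like, 4.67% of the goblet-like and 0.366% of the B-like cells. Thinned to 1000 UMIs, these shares were 3.45%, 2.69% and 0.339%.

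In the large intestine, which has no Paneth cells, Wnt3 had 26 UMIs in 5882 cells. Enteroendocrine-like cells held 4 of them (7.76 CPM, 2.11 to 19.9) and goblet-like cells 9 (0.425 CPM, 0.194 to 0.806). All 9 goblet UMIs were in 1 cluster of 224 cells. Goblet-like cells of the small intestine were 61.5-fold higher than those of the large intestine (log2 ratio 5.94, 4.98 to 7.10), with 5.96% of 11440 genes called higher there. Enteroendocrine-like cells were 6.15-fold higher (log2 ratio 2.62, 1.05 to 4.62), with 8.91% of 4648 genes called higher.

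Wnt4, Wnt5a and Wnt5b, which signal largely or partly without beta-catenin, had their highest CPM in a small telocyte-like cluster of the large intestine. Telocytes are FOXL1-expressing stromal cells that line the epithelium and are known to supply Wnt ligands to it. The cluster had 64 cells and was led by Nrg1, Cxcl14 and Bmp5, of which Nrg1 and Bmp5 were among the markers that named it. It held 277 of 518 Wnt5a UMIs, at 576 CPM (510 to 648), in 54 of the 64 cells. It also held 177 of 402 Wnt4 UMIs, at 368 CPM (316 to 426), in 41 cells, and 46 of 177 Wnt5b UMIs, at 95.6 CPM (70.0 to 127), in 25 cells. Fibroblast-like cells, a larger class, held more of the Wnt5b UMIs, 65. The telocyte-like cluster was 1.09% of the cells. A UMI of any member was found in 63 of the 64 cells, of at least 2 members in 45, of both Wnt4 and Wnt5a in 32 and of both Wnt5a and Wnt5b in 20, at a median of 6970 UMIs per cell. Thinned to 2000 UMIs, 56.2% of the 64 cells had a Wnt5a UMI, 39.1% a Wnt4 UMI and 14.1% a Wnt5b UMI, against 84.4%, 64.1% and 39.1% unthinned and 43.8%, 20.3% and 6.25% at 1000 UMIs. In B-like cells of the same library, with a median of 2644 UMIs, 1.87% of 107 thinned cells had a Wnt4 UMI. Wnt5a and Wnt5b had 0 UMIs there (exact 95% upper limit 3.39% of cells with a UMI at this depth). The next class was lower for each of the 3 genes: smooth muscle or pericyte-like cells for Wnt5a (62.0 CPM, log2 ratio 3.22, 2.76 to 3.70), and fibroblast-like cells for Wnt4 (63.3 CPM, 2.54, 2.21 to 2.87) and Wnt5b (28.4 CPM, 1.75, 1.17 to 2.32). No cluster was named telocyte-like in the small intestine, nor in the large intestine with the loose cell filter, at resolution 0.5 or with doublets kept. A cluster that kept the fibroblast name was not given the telocyte one, so such cells may be counted as fibroblast-like under those settings.

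The 303 fibroblast-like cells of the large intestine were made of 2 clusters that differed in their Wnt ligands. The cluster of 112 cells nearest to Adamdec1 fibroblasts held 143 Wnt4 UMIs at 166 CPM and 14 Wnt5a UMIs at 16.3 CPM. The cluster of 191 cells nearest to Cd81 trophocytes, stromal cells known to lie below the crypts, held 2 Wnt4 UMIs at 1.40 CPM and 66 Wnt5a UMIs at 46.1 CPM. Wnt4 and Wnt5a were thus high in opposite clusters. Wnt2 and Wnt2b were in both, at 45.4 and 25.6 CPM in the Adamdec1 type against 23.8 and 14.7 CPM in the trophocyte type. Wnt5b was at 46.6 against 17.5 CPM, and Wnt11 had all of its 12 fibroblast UMIs in the trophocyte type.

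**Figure D2:**
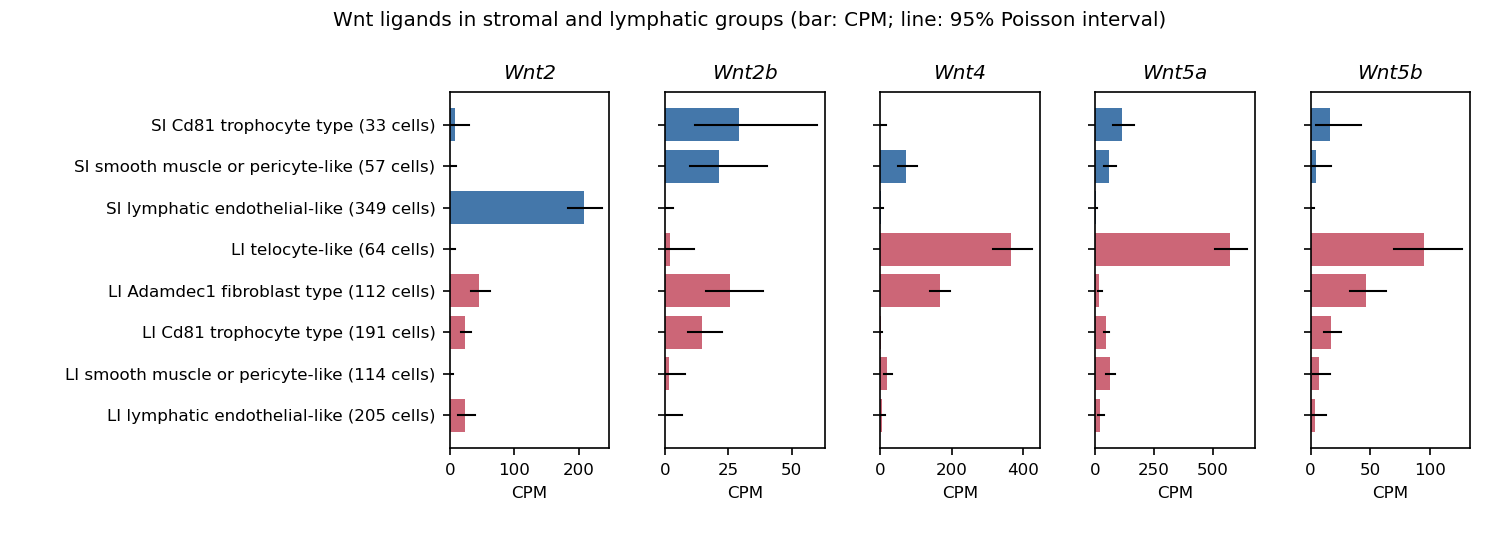
CPM (bars, linear axes) of 5 Wnt ligands in stromal and lymphatic groups of the small (SI, blue) and large (LI, red) intestinal tissue library, with 95% Poisson intervals as lines and the number of cells in brackets. The small intestinal fibroblast-like cells are drawn as Cd81 trophocyte type. The telocyte-like cells of the large intestine have the longest Wnt4, Wnt5a and Wnt5b bars, the Adamdec1 type carries Wnt4 while the trophocyte type carries Wnt5a, and the small intestinal lymphatic endothelial-like cells have the longest Wnt2 bar.

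The small intestine had 33 fibroblast-like cells, which were nearest to the trophocyte list. Wnt5a had 27 UMIs in 9 of them, at 112 CPM (74.1 to 164). Wnt4 had 0 UMIs, which allows up to 12.5 CPM, and Wnt2 had 2. Against all fibroblast-like cells of the large intestine, 1 of 4 testable members was called higher (Wnt5a, 3.22-fold, log2 ratio 1.69, 1.00 to 2.33) and 2 lower, where 2.28% of 5789 genes were called higher and 12.1% lower and the median gene was at -0.36. Wnt4 was at least 5.07-fold lower, counting its 0 UMIs as 3, and Wnt2 was at 8.33 against 31.9 CPM, a log2 ratio of -1.94 (-5.01 to -0.03) from its 2 UMIs as counted and of -1.35 with them set to 3, as in the calls. When only the trophocyte type of the large intestine was compared, Wnt5a was still 2.44-fold higher (log2 ratio 1.29, 0.58 to 1.95; 2.41% of 5472 genes were called higher), Wnt4 had 0 and 2 UMIs, and 0 members were called lower against 11.9% of genes. With the loose cell filter, under which no cluster of the large intestine was named telocyte-like, the Wnt5a log2 ratio of all fibroblast-like cells was -0.20.

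Smooth muscle or pericyte-like cells carried Wnt5a in both tissues, with 25 UMIs (58.9 CPM, 38.1 to 86.9) in the small and 45 UMIs (62.0 CPM, 45.2 to 82.9) in the large intestine (log2 ratio -0.07, -0.84 to 0.66). In the small intestine 14 of the 25 UMIs were in 1 cell. Wnt4 had 31 UMIs in 10 of the 57 small intestinal cells (73.0 CPM, 49.6 to 104) and 14 UMIs in the large intestine (19.3 CPM, 10.5 to 32.3). That is a log2 ratio of 1.92 (0.97 to 2.95), and 9.78% of 5266 genes were called higher in the small intestine. The fibroblast list was at 14500 CPM in this class of the small and 5997 CPM of the large intestine, and the smooth muscle or pericyte list at 17864 and 33062 CPM; their part in the difference was not tested. The small intestinal level of Wnt4 was 46.5 CPM at resolution 0.5 and with 4000 variable genes, where fibroblast-like cells joined this class.

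Macrophage or monocyte-like cells of the small intestine held 40 Wnt4 UMIs at 67.5 CPM (48.2 to 91.9), in 19 of 126 cells and with at most 9 in a cell. The value was 33.8 CPM with the loose filter, 38.5 CPM with the strict one, 36.3 CPM at resolution 0.5 and 44.9 CPM with 4000 variable genes. The smooth muscle or pericyte list was at 67.5 CPM in these cells, the fibroblast list at 70.8 CPM and the telocyte list at 3.37 CPM. In the smooth muscle or pericyte-like cells of the same library the telocyte list was at 200 CPM, and the other lists were at the levels given above. Wnt5a had 0 UMIs in the macrophage or monocyte-like cells. In the large intestine these cells held 28 Wnt4 UMIs (17.5 CPM, 11.6 to 25.3) in 8 of 197 cells, of which 14 were in 1 cell. The log2 ratio was 1.95 (1.22 to 2.70), and 7.73% of 6016 genes were called higher and 9.82% lower in the small intestine. The Paneth list was at 8792 CPM in these cells of the small and 495 CPM of the large intestine, and Wnt4 UMIs were in 1 of the 203 Paneth-like cells.

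Wnt6, Wnt9b and Wnt11 were sparse. Wnt6 had 64 UMIs in the small intestine, with 30 of them in enterocyte-like cells at 3.01 CPM (2.03 to 4.29). Of its 50 UMIs in the large intestine, 17 were in smooth muscle or pericyte-like cells at 23.4 CPM (13.6 to 37.5), where the small intestine had 0 UMIs. Another 7 were in 7 of 14 glia-like cells, a class too small to be compared. Wnt9b had 9 UMIs in the small intestine and 0 in the large, which allows up to 0.0242 CPM. Its neighbour Wnt3 had a quite different distribution, with 420 UMIs in Paneth-like cells against 0 to 7 UMIs of Wnt9b in any class. Wnt11 had 7 UMIs in the small intestine, 6 of them in 3 dendritic-like cells, and 32 in the large intestine, 12 of them in fibroblast-like cells (5.24 CPM, 2.71 to 9.15).

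The genes whose levels over the 31 classes of both tissue libraries were most like those of a member are given as a description. For Wnt2 they were Islr2, Sema3d and Lbp, with a Pearson r of 0.87, 0.85 and 0.84. For Wnt2b they were Lgi2, Abca8a and Angptl1 (0.99, 0.98 and 0.95), and for Wnt3 Tm4sf4, Slc18a1 and Nxnl2 (0.83, 0.82 and 0.81). Wnt4 was closest to Hgf, Cxcl14 and Adamdec1 (0.89, 0.88 and 0.86), Wnt5a to Igsf10, Col4a5 and Antxr1 (0.96, 0.95 and 0.94), and Wnt5b to Wnt5a, Igfbp6 and Sdk1 (each 0.90). For Wnt6, Epdr1, Bdh2 and Vit were at 0.78, 0.76 and 0.76. The classes of a tissue share a library, and r was computed on log2(CPM + 1).

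In organoids, which hold epithelium and no stroma, Wnt3 was mostly in Paneth-like and enteroendocrine-like cells, and no class was named goblet-like. Cells left unnamed were 285 of 538 in the control and 423 of 1028 in the coculture. Wnt3 had 143 UMIs in the control (3.30 CPM, 2.78 to 3.89) and 268 in the coculture (2.76 CPM, 2.44 to 3.12), a log2 ratio of coculture over control of -0.26 (-0.56 to 0.05). Wnt4 had 30 and 60 UMIs (0.693 and 0.619 CPM), a log2 ratio of -0.16 (-0.82 to 0.52). Wnt6 had 30 and 95 UMIs (0.693 and 0.980 CPM), a log2 ratio of 0.50 (-0.11 to 1.14). Of these 3 members, the ones with enough UMIs, 0 were 2-fold apart, where 2.79% of 13076 genes were called higher and 4.2% lower in coculture. With CPM averaged over cells the log2 ratio of Wnt6 was 1.15, and 1 member was apart. The intervals of all 3 differences span 0, and those of Wnt3 and Wnt4 lie within a 2-fold change. The other 6 members had 0 to 12 UMIs in a library, for example Wnt2 with 4 and 8 UMIs and Wnt5a with 2 and 1.

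Within the organoids, Paneth-like cells held 133 of the 143 control Wnt3 UMIs, at 35.5 CPM (29.7 to 42.0) in 20 of 28 cells, and 201 of the 268 coculture UMIs, at 41.8 CPM (36.2 to 48.0) in 37 of 57 cells. These intervals overlap, so the Wnt3 level of the Paneth-like cells did not differ beyond counting error. Enteroendocrine-like cells of the coculture held 56 Wnt3 UMIs at 76.2 CPM (57.6 to 99.0) in 16 of 22 cells. In CPM this was above the interval of the Paneth-like cells, and levels per cell were not compared. In the control only 5 such cells were found, with 8 UMIs, too few to be compared. Wnt6 was highest in enterocyte-like cells, at 2.78 CPM (10 UMIs) in the control and 2.32 CPM (34 UMIs) in the coculture. In the control these were not separated from cycling-like cells (log2 ratio 1.13, -0.24 to 2.46), and in the coculture not from enteroendocrine-like cells. Stem-like organoid cells had 0 and 1 Wnt3 UMIs.

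**Figure D3:**
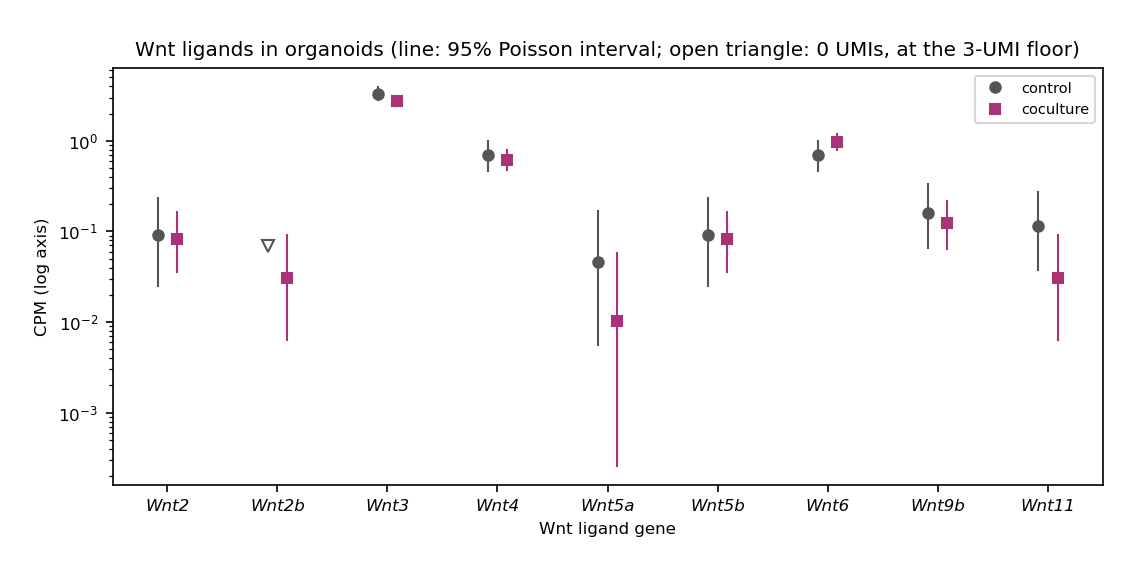
CPM on a log axis of the 9 Wnt ligands in control (grey circles, 538 cells) and cocultured (purple squares, 1028 cells) organoids, with 95% Poisson intervals as lines and an open triangle at the 3-UMI floor where a gene had 0 UMIs. The intervals of the 2 cultures overlap for each of the 8 members with UMIs in both.

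On the Visium sections, which sample the whole wall and not a sort, 3 of 8 testable members differed at least 2-fold between the tissues with sections that did not overlap. Wnt3 and Wnt11 were higher and Wnt2 lower in the small intestine, where 16% of 16184 genes were called higher and 14.7% lower by the same rule. Wnt3 had 168 and 108 UMIs in the small intestinal sections (6.90 and 3.59 CPM) and 2 and 1 in the large intestinal ones (0.0485 and 0.0228 CPM), a log2 ratio of 7.17 (5.61 to 9.45). With 1 large intestinal section left out, the count of the other was set to 3 UMIs, which gave 6.21 without section 1 and 6.12 without section 2. Both small intestinal sections were far above both others, and they differed from each other by more than their intervals (5.89 to 8.02 and 2.94 to 4.33 CPM). Wnt11 had 25 and 42 against 11 and 11 UMIs (1.03 and 1.40 against 0.267 and 0.251 CPM), a log2 ratio of 2.25 (1.54 to 3.02), or 1.51 with CPM averaged over spots. Wnt2 had 4 and 1 against 28 and 25 UMIs (0.164 and 0.0332 against 0.679 and 0.570 CPM), a log2 ratio of -2.76 (-4.44 to -1.45). Without small intestinal section 2 it was -1.92, and with CPM averaged over spots -3.71. Fibroblast-like cells had the same direction, with Wnt2 at 8.33 against 31.9 CPM from 2 and 73 UMIs, and lymphatic endothelial-like cells the opposite one, with 208 against 23.0 CPM. In sections, fewer cells of a type and less RNA per cell cannot be told apart.

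Wnt5a missed the 2-fold line, with 408 and 616 UMIs (16.8 and 20.5 CPM) in the small and 406 and 439 UMIs (9.84 and 10.0 CPM) in the large intestine, a log2 ratio of 0.92 (0.79 to 1.05), and the sections of the tissues did not overlap. Without small intestinal section 1 the log2 ratio was 1.04 and Wnt5a was also called apart. Wnt4 had 3.86 and 4.12 CPM in the small against 5.67 and 4.70 CPM in the large intestine (log2 ratio -0.37, -0.61 to -0.13). Wnt5b was at 2.75 and 4.79 against 4.75 and 4.81 CPM, so that its small intestinal sections differed by more than the tissues did. Wnt6 (16 and 17 against 42 and 29 UMIs, log2 ratio -0.46, -1.10 to 0.15) and Wnt2b (9 and 11 against 17 and 22 UMIs, -0.32, -1.18 to 0.49) had intervals that span 0. Wnt9b had at most 2 UMIs in a section.

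**Figure D4:**
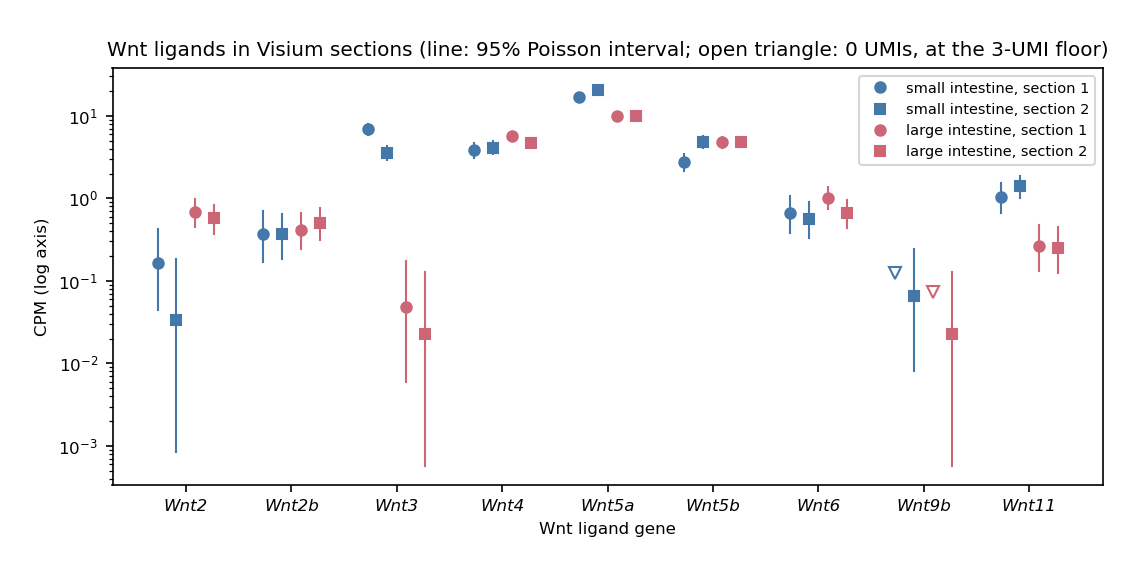
CPM on a log axis of the 9 Wnt ligands in 2 small intestinal (blue) and 2 large intestinal (red) Visium sections (circle for section 1, square for section 2), with 95% Poisson intervals as lines and an open triangle at the 3-UMI floor where a gene had 0 UMIs. Wnt3, Wnt11 and Wnt5a lie higher in both small intestinal sections, Wnt2 lies higher in both large intestinal ones, and Wnt4, Wnt6 and Wnt2b lie closer together. Wnt5b is at 2.75 CPM in small intestinal section 1 against 4.79, 4.75 and 4.81 CPM in the other sections.

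Spots were grouped into 9 regions of the small and 10 of the large intestine, called here by their leading genes. Wnt3 was highest in the small intestinal region led by the Paneth defensins Defa35, Defa34 and Defa36 (522 spots), with 79 and 51 UMIs in the 2 sections (29.7 and 27.1 CPM). The region of proliferation genes (Melk, E2f8, Ttk) followed at 8.16 CPM (6.06 to 10.8). The 2 sections differed by less than counting error in the defensin region, although they differed over the whole. Wnt5a had its highest level in the region led by Iglc1, Iglc2 and Mmp10 (251 spots), with 61 and 124 UMIs (49.8 and 50.6 CPM), and was next at 37.2 CPM (33.2 to 41.4) in the region led by Plaat1, Myocd and Atcayos, where the smooth muscle list was at 57569 CPM. Wnt4 shared the first of these regions, at 20.4 CPM (16.1 to 25.6) against at most 4.82 CPM in the other 8. Wnt5b did not: it was at 13.8 CPM in the muscle region and 12.0 CPM in the enteric neuron region led by Nmu, Gal and Cartpt, against 3.27 CPM in the Iglc1 region. Wnt11 had 5 and 8 UMIs in the neuron region (8.97 and 7.25 CPM), against 1.47 CPM (0.784 to 2.52) in the muscle region. The region led by Car3, Cfd and Retn (20 spots) had 2 Wnt11 UMIs. Wnt2b had 8 of its 20 UMIs in the defensin region (1.76 CPM, 0.760 to 3.47) and 8 in the muscle region. Wnt2 had at most 2 UMIs in any small intestinal region.

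In the large intestine, 21 of the 53 Wnt2 UMIs were in the region led by Vat1l, Elavl4 and Vip (557 spots), at 3.57 CPM (2.21 to 5.46). They were spread unevenly, with 16 UMIs in section 1 and 5 in section 2 (5.79 and 1.61 CPM). The region led by Cldn5, Mmrn1 and Cytl1, where the lymphatic marker list was highest at 891 CPM, had 7 Wnt2 UMIs (1.47 CPM, 0.59 to 3.03). Wnt4 was highest in the region led by Mmp13, Apol7c and Fxyd4 (537 spots), with 74 and 52 UMIs (11.2 and 8.30 CPM), and Wnt5a was at 16.3 CPM there (107 and 103 UMIs). The region led by Cfd, Pi16 and Hba-a1 had Wnt5a at 16.6 CPM (12.7 to 21.3), which overlaps the 14.2 to 18.7 of the Mmp13 region. Wnt5b was highest in the Vat1l region at 10.0 CPM (7.64 to 13.0), with 7.71 CPM in the Mmp13 region. Wnt3 had no more than 1 UMI in any large intestinal region.

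**Figure D5:**
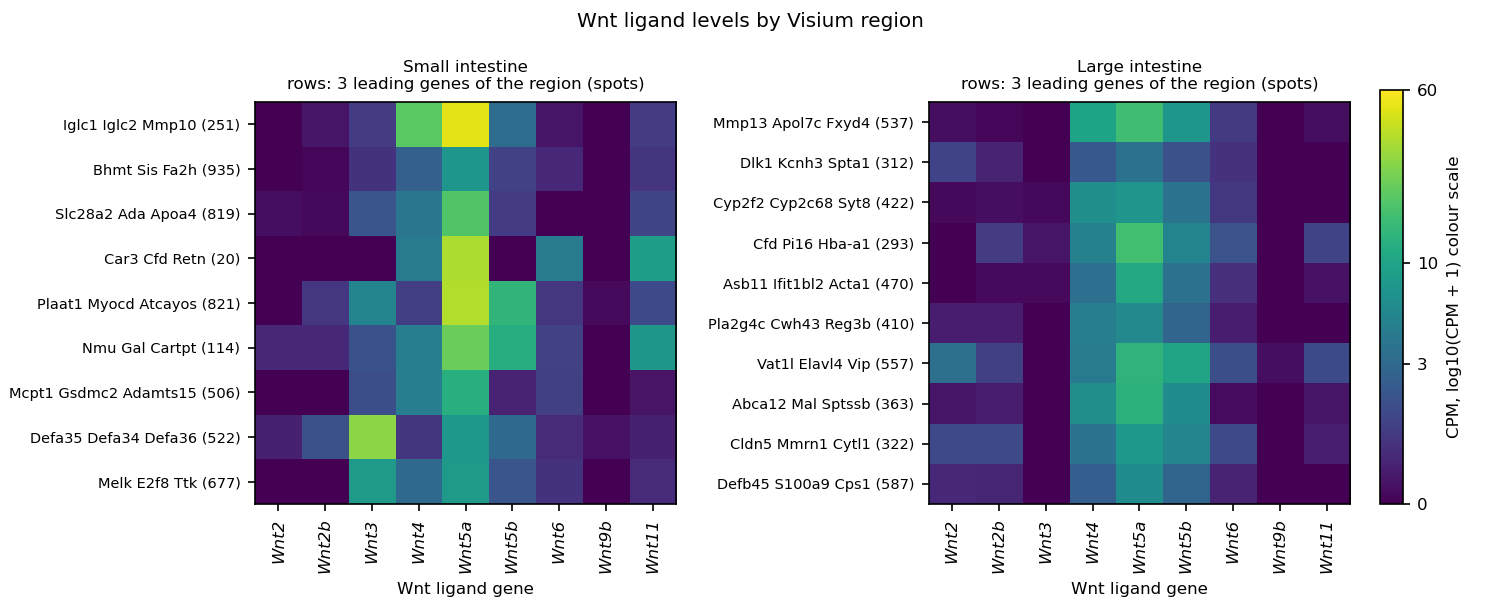
Level of the 9 Wnt ligands (columns) in the regions of the small (left) and large (right) intestinal sections (rows, 3 leading genes and number of spots), as CPM over both sections on a log10(CPM + 1) colour scale. Wnt3 peaks in the defensin region at 28.6 CPM, Wnt4 in the Iglc1 region of the small and the Mmp13 region of the large intestine, Wnt5a in the Iglc1 region, and Wnt2 in the Vat1l region of the large intestine at 3.57 CPM.

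Genes of Wnt release were measured in the same classes. Wls, which carries Wnt proteins to the cell surface, was at 121 CPM in lymphatic endothelial-like, 118 CPM in smooth muscle or pericyte-like and 13.3 CPM in Paneth-like cells of the small intestine, and at 97.3 CPM in T, NK or innate lymphoid-like cells. In the Paneth-like cells the Paneth list, at 573404 CPM, leaves less of the total to other genes. Large intestinal levels of Wls were 226 CPM in smooth muscle or pericyte-like, 204 CPM in telocyte-like, 186 CPM in fibroblast-like and 133 CPM in lymphatic endothelial-like cells. Porcn, the enzyme that attaches the lipid, had 10 UMIs in lymphatic endothelial-like cells of small intestine (8.08 CPM) and 20 (8.73 CPM) in fibroblast-like cells of the large intestine. Small intestinal fibroblast-like cells had 0 Porcn UMIs (up to 12.5 CPM allowed), and smooth muscle or pericyte-like and macrophage or monocyte-like cells there had 2 each. Neither gene of this list was 2-fold apart between the Visium tissues or the organoid cultures. Between fibroblast-like cells Wls was called lower in the small intestine, at 91.6 against 186 CPM (log2 ratio -1.02, -1.71 to -0.40), where 12.1% of all genes were. With the Cd81 trophocyte clusters only, chosen after seeing the data, the ratio was -0.47 (-1.18 to 0.17).

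Frizzled and co-receptor genes were compared in stem-like cells, which receive the ligands. There, 11 of 16 receptor genes had enough UMIs, 2 were called higher in the small intestine and 2 lower, where 7.07% of 10390 genes were called higher and 7.54% lower. Fzd5 was at 55.3 against 18.6 CPM (log2 ratio 1.57, 1.26 to 1.89) and Ror2 at 6.29 against 1.24 CPM (2.34, 1.21 to 3.55). Fzd3 was at 0.94 against 17.6 CPM (3 and 156 UMIs, -4.22, -6.51 to -2.65) and Fzd8 at 3.14 against 6.64 CPM (-1.08, -2.21 to -0.10). The co-receptor Lrp6 was at 72.0 and 44.3 CPM and Ryk at 70.4 and 68.9 CPM. Fzd4 was at 317 CPM in small intestinal blood endothelial-like and 134 CPM in lymphatic endothelial-like cells. On the sections, 5 of 15 testable receptor genes were higher in the small intestine (Fzd2, Fzd3, Fzd9, Lrp5 and Ror2) and 0 lower, against 16% and 14.7% of all genes.

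Several secreted inhibitors were measured beside the ligands in stromal classes. Sfrp1, which binds Wnt proteins, was at 2021 CPM in smooth muscle or pericyte-like and 1478 CPM in fibroblast-like cells of the small intestine, and at 468 CPM in fibroblast-like cells of the large intestine. The telocyte-like cells carried Dkk3 (308 CPM), Sfrp1 (91.4 CPM), Wif1 (27.0 CPM) and Dkk2 (12.5 CPM) beside Wnt4, Wnt5a and Wnt5b. Others were epithelial: Wif1 reached 52.4 CPM (27 UMIs) in large intestinal enteroendocrine-like cells, and Sfrp5 was at 43.2 CPM (19 UMIs) in small intestinal enteroendocrine-like and 19.8 CPM (63 UMIs) in stem-like cells, against 0 UMIs in large intestinal stem-like cells. On the sections, 2 of 9 testable inhibitors were higher in the small intestine and 4 lower, against 16% and 14.7% of all genes. They were Dkk2 (5.71 and 9.17 against 0.703 and 0.548 CPM) and Notum, an enzyme that removes the lipid (0.821 and 0.864 against 0.17 and 0.137 CPM). Those lower were Sfrp2, Sfrp4, Frzb and Wif1, with log2 ratios of -3.97, -2.80, -1.66 and -1.11.

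Of the R-spondin list, whose ligands strengthen the response to Wnt proteins, 3 of 6 testable genes were higher in the small intestinal sections and 0 lower, against the same 16% and 14.7% of all genes: Rspo1, Rspo2 and Rspo3, with log2 ratios of 1.16, 2.09 and 1.13. Of 13 genes that are targets of beta-catenin signalling, 5 were higher (Axin2, Nkd1, Sp5, Apcdd1 and Tnfrsf19) and 1 lower (Lef1) on the sections. The target Axin2 reached 36.8 and 40.8 CPM in small intestinal sections against 12.6 and 12.7 CPM in large intestinal ones, higher by 1.62 on the log2 scale (1.52 to 1.73). In stem-like cells it was at 202 against 36.1 CPM (log2 ratio 2.48, 2.29 to 2.68), and 3 of 10 testable targets were called higher and 0 lower, against 7.07% and 7.54% of all genes. Rnf43, of the R-spondin list, was also called higher there, at 118 against 56.2 CPM. In organoids, 2 of 9 testable targets were called lower in coculture, against 4.2% of all genes. They were Cd44 at 13.1 against 26.9 CPM (log2 ratio -1.04, -1.16 to -0.93) and Ephb3 at 5.03 against 10.5 CPM (-1.07, -1.25 to -0.88). Against 2.79% of all genes called higher in coculture, 1 of 1 testable inhibitor was, Sfrp5 with 22 against 3 UMIs, and its interval spans 0 (log2 ratio 1.71, -0.02 to 4.09). Of 14 testable receptors 1 was called higher, Fzd1 with 20 against 2 UMIs (1.57 with 2 UMIs set to 3, interval 0.12 to 5.30 from the UMIs as counted).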

How the data were processed

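Per the file headers, the authors made the deposited tables with Cell Ranger 6.0.1 (single cells) and spaceranger 1.2.1 (Visium). The submitters' processing notes name mm10. The deposited values are counts of UMIs per gene and barcode, not normalized. Single cells needed 500 genes or more and no more than 20% mitochondrial UMIs, and spots needed 500 UMIs. The highest Scrublet scores (0.8% per 1000 cells) were removed as doublets, 11 organoid, 61 small and 306 large intestinal cells. Cells were clustered with scanpy 1.11.5 (2000 variable genes, 30 components, Leiden resolution 1, leidenalg 0.10.2), leaving the Wnt lists out, and clusters were named from marker lists. UMIs were summed per class and scaled to CPM. Intervals came from scipy 1.17.1. A count under 3 was set to 3 in calls, and no ratio was made where both were at or under 3. Classes and sections were compared only by these values. Scripts were tested on simulated data. The members and lists were chosen with earlier results of these data known. All 9 members are described; of each pathway list, up to 4 of the highest CPM per class are named, with genes called apart on the sections, in stem-like cells and in organoids, and for members with at least 50 UMIs the 3 genes of highest r. Pathway genes called apart, and the classes compared between tissues other than lymphatic endothelial-like and fibroblast-like cells, were chosen after their values were seen. Alternatives covered the filters, doublets, clustering, scaling, UMI minimum, thinning depth and left-out sections.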

Additional observations from a re-analysis of the deposited data

Results flagged for a closer look

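Barcodes that did not pass the cell filter held more than 3 UMIs of several members. In the small intestinal tissue library, 6147 such barcodes held 160 Wnt3 UMIs (6.08 CPM, against 12.0 CPM in kept cells), 46 Wnt2 UMIs (1.75 against 5.19 CPM), 14 of Wnt4, 12 of Wnt5a, 14 of Wnt6 and 4 of Wnt9b. In the large intestinal library, 2764 such barcodes held 69 Wnt4 UMIs (3.70 CPM, against 3.25 CPM in kept cells), 63 of Wnt5a (3.38 against 4.18 CPM), 18 of Wnt5b, 10 of Wnt2, 8 of Wnt6, 8 of Wnt11 and 5 of Wnt2b. The organoid barcodes outside the filter held 8 Wnt3 UMIs in the control, and 13 Wnt3 and 4 Wnt6 UMIs in the coculture. These UMIs enter no comparison above.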

How the results depend on the processing

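Over the 6 counts of members that answer a comparison, 48 alternative values stayed within 1.5 times the reported count and 5 did not. Without a minimum on UMIs, members highest in a stromal or endothelial class of the small intestine numbered 7 in place of 3, members apart between organoid cultures 1 in place of 0, and members apart between lymphatic endothelial-like cells 2 in place of 1. When CPM was averaged over cells, 1 member (Wnt6, log2 ratio 1.15) was apart between organoid cultures. With the Cd81 trophocyte clusters only, chosen after seeing the data, 1 member was apart between fibroblast-like cells in place of 3. The log2 ratio of Wnt5a in fibroblast-like cells was 1.69, and -0.20 with the loose filter. With single Visium sections left out, 3 to 4 members were apart, and the log2 ratio of Wnt5b, -0.30 with all sections, was 0.00069 without small intestinal section 1 and -0.80 without section 2. Leaving mitochondrial and ribosomal protein genes out of the total moved the Visium median over all genes from -0.01 to -0.16. Among values of single members, 248 stayed within their error, 38 moved and 1 reversed. Fibroblast-like cells could not be compared at resolution 0.5 or with 4000 variable genes, where those of the small intestine joined smooth muscle or pericyte-like cells. No paired analysis was possible because no result came from a test and the numbers name technical duplicate sections. Depth limits Wnt9b, Wnt11 and Wnt2b most, with at most 9, 32 and 60 UMIs in the kept cells of a tissue library.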

Other observations

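Of 10 further Wnt ligand genes, several had UMIs in stromal classes. Wnt16 had 19 UMIs in smooth muscle or pericyte-like cells of the large intestine (26.2 CPM) and Wnt10b 24 UMIs in fibroblast-like cells there (10.5 CPM). Wnt9a had 5 UMIs in fibroblast-like cells of the small intestine (20.8 CPM) and 13 in lymphatic endothelial-like cells (10.5 CPM), which were not separated (log2 ratio 0.99, -0.85 to 2.57), and 13 in large intestinal fibroblast-like cells (5.68 CPM). On the Visium sections small intestinal Wnt9a levels were 1.35 and 2.76 CPM, against 0.412 and 0.388 CPM in large intestine (116 against 34 UMIs, log2 ratio 2.41, 1.85 to 3.01), and it was the 1 gene of these 10 with enough UMIs to be compared. Wnt8b had 12 UMIs in colonocyte-like cells (1.16 CPM).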
